A study of Mus musculus with 15 samples.

Results

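The semaphorin, ephrin and Slit guidance genes were taken as every gene of the deposited log2 signal table whose symbol names a semaphorin of classes 3 to 7, a plexin, a neuropilin, an ephrin, an Eph receptor, a Slit or a Robo receptor. The rule used names and no measured value, and it found 60 genes of the 22008 genes with a symbol. They comprised 7 class 3 semaphorins, 13 semaphorins of classes 4 to 7, 2 neuropilins, 9 plexins, 5 ephrin-A ligands, 9 EphA receptors, 3 ephrin-B ligands, 5 EphB receptors, 3 Slits and 4 Robo receptors. A transcript cluster is the unit of the array that sums the probes of one transcribed locus, and the 60 genes were covered by 64 clusters of 35556. Where a gene had more than 1 cluster (Efna3, Epha10, Ephb1 and Sema6b), the one with the highest mean signal over all tumours stands for it.

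These families were first known for steering growing axons, and the same ligands and receptors work between cells of vessels, epithelia, the immune system and tumours. Secreted class 3 semaphorins bind neuropilins, which form holoreceptors with plexins, whereas most other semaphorins bind plexins directly and are held in the membrane. Ephrin-A ligands are anchored by a lipid and ephrin-B ligands span the membrane, so both signal to Eph receptor kinases on touching cells. Slits are secreted proteins that act through Robo receptors, and in the mammary gland Slit and Robo genes are known for holding the layers of the duct together.

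The data came from whole primary tumours of 5 transplanted mouse mammary tumour types, each profiled in 3 tumours on Affymetrix Mouse Gene 1.0 ST arrays, 15 in all, with 1 array and 1 mouse per tumour. All hosts were female, 6 to 8 weeks of age per the labels, and all tumours grew in the number 4 inguinal mammary fat pad. 67NR, labelled non-metastatic, and 4T1.2, labelled metastatic, were grown in BALB/c mice, and both lines go back to the same tumour. 4T1.2 is a clone grown from a single cell of 4T1. EO771, labelled non-metastatic, and EO771.LMB, labelled metastatic, were grown in C57BL/6 mice. EO771 arose as a spontaneous tumour and carries an mCherry reporter, and EO771.LMB was grown out of a lung nodule of an EO771 tumour after passage in mice. The reporter is not particular to EO771, since the methods also describe cell sorting from mCherry-expressing 67NR, 4T1.2 and EO771.LMB tumours. EMT6.5, labelled metastatic, is a clone from a single cell of EMT6 and was grown in BALB/c mice. Each line is thus 1 clone or population, so that replicates differ by mouse and not by line, and the strain of the host cannot be told apart from the line. Because whole tumours were extracted, fewer cells of a type and less RNA per cell cannot be told apart either.

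Across all clusters, the array medians lay between 6.32 and 6.44 and Pearson's r between tumours of a type was 0.983 to 0.989. The median cluster had a mean signal of 6.40, which serves below as a landmark only, since no detection values were used, so that low signal and absence were not distinguished. Levels of different genes rest on different probes, so they are compared only within a gene. As to the labelled tissue, the epithelial keratin Krt8 had type means of 9.83 to 10.7, whereas those of the epithelial adhesion genes Epcam (5.55 to 6.13) and Cdh1 (5.68 to 6.65) were below or near the median cluster. Mean log2 signals over the 13 macrophage markers were 9.71 to 9.93 in the 67NR tumours and 9.27 to 9.48 in 4T1.2. They were 8.69 to 8.92 in EMT6.5, 8.08 to 8.30 in EO771 and lowest, at 7.90 to 8.06, in EO771.LMB. EMT6.5 tumours 1 and 3 stood apart in 8 skeletal muscle markers, with list means of 7.84 and 8.48 against 5.67 in the remaining EMT6.5 tumour.

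The promoters of 5 members on which the results below turn are shown because 4 of them (Sema3a, Sema5a, Slit2 and Efnb2) were lower in 4T1.2 than in 67NR and, between the labelled metastatic types, higher in EMT6.5 than in 4T1.2, and the fifth (Epha1) was higher in 4T1.2. Each is the 120 bases before the annotated start of RefSeq on build GRCm38.p6, read 5′ to 3′ on the gene's strand, with matches to GGGCGG (a GC box), CACCTG (an E-box) or TATAAA on either strand in capitals.
Sema3a, chr5:13396664-13396783, plus strand: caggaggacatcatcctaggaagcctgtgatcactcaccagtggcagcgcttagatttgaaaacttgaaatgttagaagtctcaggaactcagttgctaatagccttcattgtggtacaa
Sema5a, chr15:32244693-32244812, plus strand: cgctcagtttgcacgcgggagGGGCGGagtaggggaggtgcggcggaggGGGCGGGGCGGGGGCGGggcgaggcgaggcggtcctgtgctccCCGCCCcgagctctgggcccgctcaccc
Slit2, chr5:47983035-47983154, plus strand: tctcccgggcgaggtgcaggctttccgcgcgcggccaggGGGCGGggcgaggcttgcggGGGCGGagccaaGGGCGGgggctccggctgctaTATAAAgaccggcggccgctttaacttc
Efnb2, chr8:8661243-8661362, minus strand: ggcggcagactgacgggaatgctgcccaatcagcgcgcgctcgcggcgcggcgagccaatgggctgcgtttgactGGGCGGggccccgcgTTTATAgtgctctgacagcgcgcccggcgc
Epha1, chr6:42373269-42373388, minus strand: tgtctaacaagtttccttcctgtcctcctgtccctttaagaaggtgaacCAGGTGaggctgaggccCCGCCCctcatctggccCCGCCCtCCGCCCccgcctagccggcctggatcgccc
Sema3a differed in composition from the other 4, with 40.8% G and C and 2 CpG dinucleotides in the 250 bases before its start and none of the 3 motifs. The same window held 72% G and C and 17 CpG in Sema5a, 69.6% and 25 in Slit2, 72% and 27 in Efnb2, and 54.4% and 9 in Epha1, beside medians of 52.4% and 6 over all 32851 promoters. Over the 41 members with exactly 1 promoter entry the medians were 64.8% and 16. GGGCGG was present in the windows of Sema5a, Slit2, Efnb2 and Epha1 and in 32.7% of all promoters. TATAAA was present in Slit2 and Efnb2 and in 12.4% of all promoters. CACCTG was present in Efnb2 and Epha1, for Efnb2 upstream of the stretch shown, and in 17.2% of all promoters. Neighbouring GGGCGG matches can share letters. Of the 60 members, 53 had an entry and 41 had exactly 1, of which 29 held GGGCGG, 7 CACCTG and 2 TATAAA. These matches describe letters in a window and not sites.

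Most guidance genes differed among the 5 tumour types. By limma's moderated F test, with Benjamini-Hochberg adjustment over all clusters, 43 of 60 members differed, or 71.7%, beside 43.1% of all clusters and 48.9% of all genes. The type means of a member spanned a median of 1.03 on the log2 scale, and those of 15 members spanned more than 2. Spans over all genes were not computed, so these values have no background beside them. Sema3a spanned most (5.77), followed by Efna5 (5.27), Sema3e (4.87), Slit2 (4.82), Sema5a (4.82), Efnb2 (4.65), Sema3c (4.29), Nrp1 (4.28) and Plxna4 (4.26). The families were unequal in this. All 3 Slits, all 3 ephrin-B ligands, both neuropilins and 8 of 9 plexins differed among types, but only 2 of 9 EphA receptors (Epha1 and Epha4) and 1 of 4 Robo receptors (Robo1). In 23 members the signal was below the median cluster in every type, between 4.13 and 6.37 over all tumours. These comprised Sema3d, Sema3g, Sema4f, Sema5b, Sema6c, Plxnb3, Efna2, Efna3, Efna4, Efnb3, Epha3 to Epha8, Epha10, Ephb1, Ephb3, Ephb6, Robo2, Robo3 and Robo4.

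**Figure D1:**
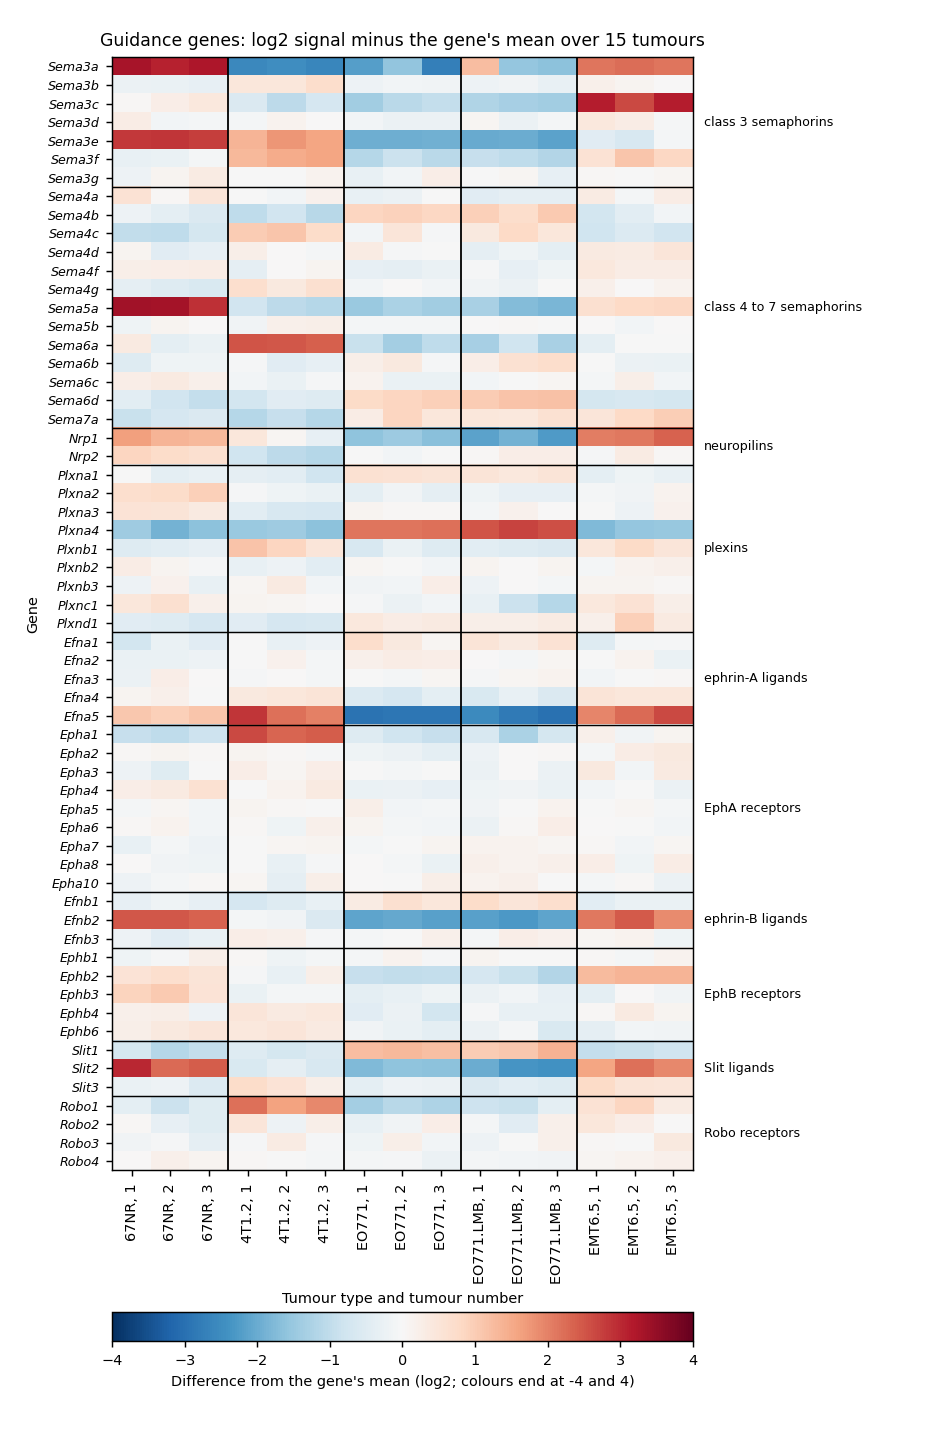
Each row is a guidance gene, each column a tumour (type and tumour number), and the colour is the log2 signal minus the gene's mean over the 15 tumours, with colours ending at -4 and 4. Few rows carry most of the contrast: Sema3a, Sema3e, Sema5a, Slit2 and Efnb2 are red in the 67NR tumours and blue in the EO771 and EO771.LMB tumours, except EO771.LMB tumour 1 for Sema3a, whereas Plxna4 is the reverse, and most EphA rows are pale throughout.

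Between 67NR and 4T1.2, the non-metastatic and the metastatic tumour of the 4T1 model, the ligands Sema3a, Sema5a, Slit2 and Efnb2 and both neuropilins were lower in 4T1.2, whereas Epha1, Sema6a, Robo1, Sema4c and Sema3f were higher. By limma with adjustment over all clusters, 12 members were higher and 15 lower in 4T1.2, or 20% and 25% of members. The corresponding shares were 8.69% and 9.12% of all clusters and 9.78% and 11% of all genes. The median difference over the members was 0.00 on the log2 scale and the median absolute difference 0.36, beside 0.04 and 0.19 over all genes. In all 27 members called, the 3 tumours of one type lay beyond the 3 of the other, and so did 7 of the 33 that did not pass. In all, groups did not overlap in 56.7% of members, beside 32% of all clusters and 35.3% of all genes, and among clusters that did not pass the share was 17.7%. Over all clusters, groups did not overlap in 11391, of which 5171 had not passed, while 3091 were called higher and 3244 lower. Separation was thus usual among called clusters and is not particular to the called members.

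Among the ligands lower in 4T1.2, Sema3a differed most. Sema3a, a secreted repellent that acts through Nrp1 and A-type plexins, had log2 signals of 12.24, 12.03 and 12.17 in the 67NR tumours and 6.35, 6.46 and 6.32 in the 4T1.2 tumours. The 67NR values lay above the 95th percentile of all clusters (10.8) and the 4T1.2 values near the median cluster, with a difference of -5.77 (SE 0.54), or 54.5-fold (adjusted p = 3.1e-06). Sema5a, a membrane semaphorin with thrombospondin repeats, gave 10.36, 10.31 and 9.89 in 67NR and 6.23, 5.92 and 5.84 in 4T1.2 (-4.19, SE 0.16, 18.2-fold, adjusted p = 1.5e-10). Slit2, the secreted ligand of Robo1, gave 10.49, 9.76 and 9.91 against 6.88, 7.14 and 6.86 (-3.09, SE 0.19, 8.54-fold, adjusted p = 3.9e-08). In each of these ligands every 67NR tumour lay above every 4T1.2 tumour. Efnb2, the membrane ephrin known as a marker of arterial endothelium, gave 10.78, 10.76 and 10.64 against 8.20, 8.15 and 7.70 (-2.71, SE 0.15, 6.54-fold, adjusted p = 9.0e-09). Smaller falls were called for Sema3e (-1.25), which binds Plxnd1 without a neuropilin, Sema3c (-1.02), Sema4b (-0.56) and Sema6c (-0.41).

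Both neuropilins were lower in 4T1.2. Nrp2, co-receptor of Sema3f and of VEGF-C, gave 10.40, 10.29 and 10.17 in 67NR and 8.76, 8.49 and 8.39 in 4T1.2 (-1.74, SE 0.13, 3.34-fold, adjusted p = 1.9e-07). Nrp1, co-receptor of Sema3a and of VEGF-A, gave 10.22, 9.95 and 9.87 against 9.02, 8.65 and 8.26 (-1.37, SE 0.17, 2.58-fold, adjusted p = 5.7e-05). Both kept signals well above the median cluster in every 4T1.2 tumour. Of the 9 plexins, Plxna3 (-1.05), Plxna2 (-0.96) and Plxnb2 (-0.43) were lower and Plxnb1, the receptor of Sema4d, was higher (1.23). The Sema3a receptors Plxna1 and Plxna4 did not pass, with 6.27, 5.80 and 6.05 in 67NR and 6.21, 6.28 and 6.05 in 4T1.2 for Plxna4. Among Eph receptors, Ephb3 (-0.96) and Ephb2 (-0.62) were lower.

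The members higher in 4T1.2 were led by Epha1, an Eph receptor known from epithelia. It gave 5.22, 5.14 and 5.31 in 67NR, below the median cluster, and 8.80, 8.48 and 8.57 in 4T1.2 (3.39, SE 0.16, 10.5-fold, adjusted p = 2.3e-09). Sema6a, a membrane ligand of Plxna2 and Plxna4, gave 6.71, 5.96 and 6.10 against 8.89, 8.85 and 8.74 (2.57, SE 0.20, 5.93-fold, adjusted p = 4.4e-07). Robo1, the Slit receptor, gave 5.71, 5.24 and 5.60 against 8.30, 7.72 and 8.02 (2.50, SE 0.18, 5.65-fold, adjusted p = 2.3e-07). Of the Slit ligands, Slit2 was thus lower and Slit3 higher (0.85) in 4T1.2, and Slit1 and the other Robo receptors did not pass. Sema4c, a ligand of Plxnb2, gave 6.45, 6.43 and 6.73 against 8.44, 8.55 and 8.16 (1.85, SE 0.17, 3.59-fold, adjusted p = 2.3e-06). Sema3f, the class 3 ligand of Nrp2, gave 7.10, 7.10 and 7.29 against 8.70, 8.87 and 8.95 (1.68, SE 0.13, 3.19-fold, adjusted p = 5.4e-07), so that within class 3 Sema3a and Sema3f went opposite ways. Efna5, a lipid-anchored ephrin, gave 9.37, 9.25 and 9.39 against 11.16, 10.48 and 10.29 (1.30, SE 0.20, adjusted p = 0.00038). Sema4g (1.05), Sema3b (0.81), Efnb3 (0.46) and Efna4 (0.36) were also higher.

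**Figure D2:**
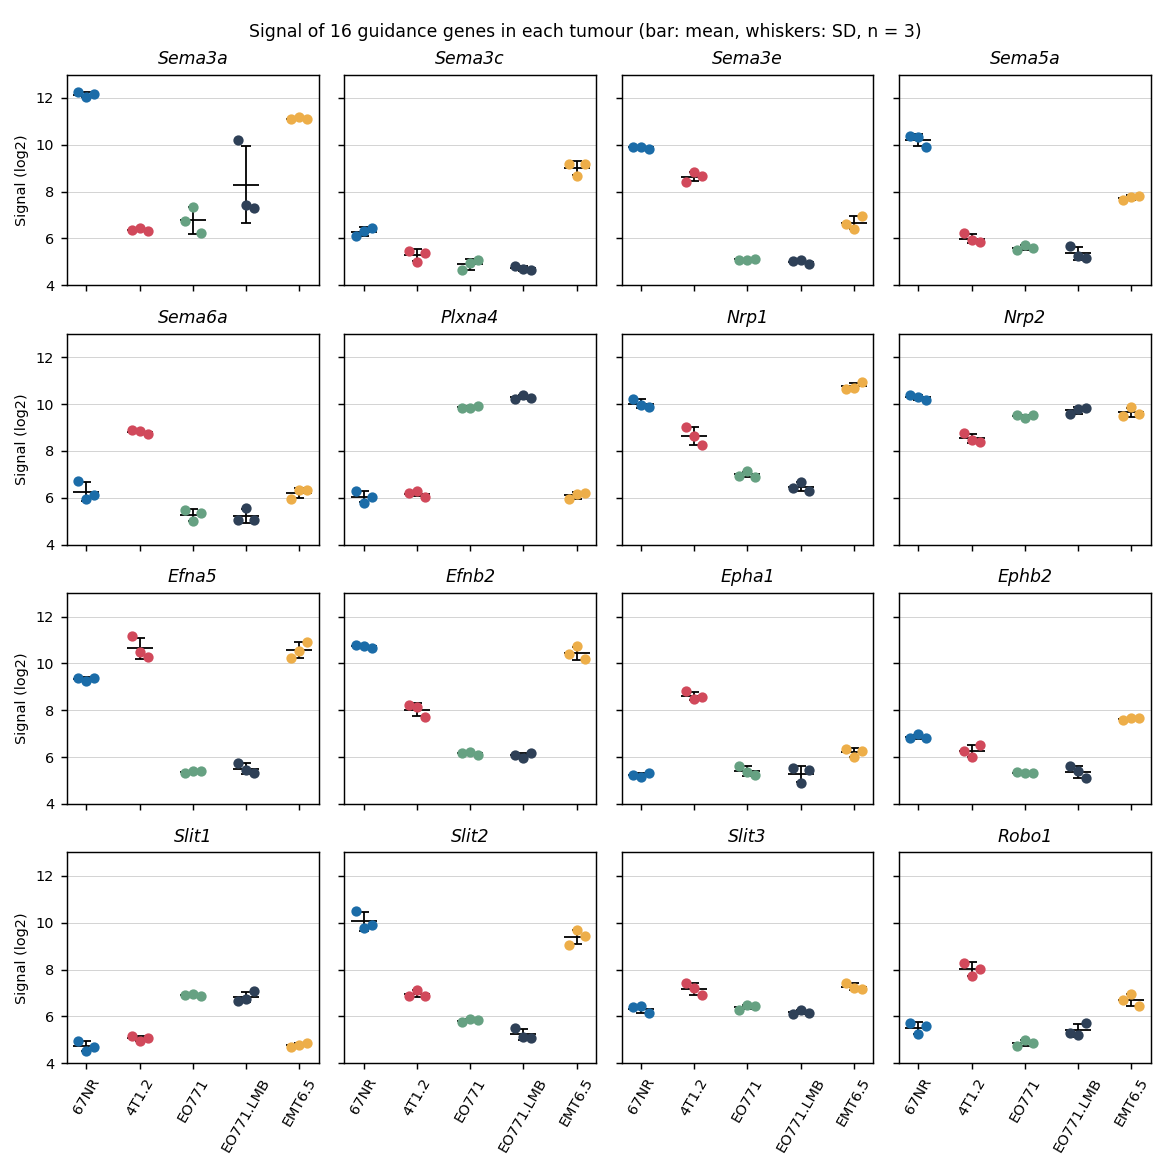
Log2 signal of 16 guidance genes in each tumour, by tumour type; points are tumours, the bar is the mean and the whiskers the SD (n = 3). Sema3a, Sema5a, Slit2 and Efnb2 sit high in the 67NR tumours and lower in 4T1.2, Epha1, Sema6a and Robo1 the reverse, and EO771.LMB tumour 1 lies at 10.19 for Sema3a, apart from 7.41 and 7.29 in the other EO771.LMB tumours.

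Some cell type markers also differed between 67NR and 4T1.2. Their counts stand beside 9.78% of all genes higher and 11% lower in 4T1.2, and short lists with few markers called are not read as differences in cell type. Of 13 macrophage markers 6 were lower and 1 higher in 4T1.2 (median -0.58), of 12 fibroblast markers 5 were higher and 2 lower (median 0.48), and of 10 neutrophil markers 5 were higher (median 0.51). Of 18 blood endothelial markers 3 were lower and 1 higher (median -0.16), with means over the list of 7.02 to 7.19 in 67NR and 6.99 to 7.14 in 4T1.2. Of 7 lymphatic endothelial markers 2 were lower (Lyve1, 10.9 in 67NR and 8.26 in 4T1.2 as type means, and Pdpn). The other 5, among them Prox1 (5.29 and 5.26) and Flt4 (4.94 and 5.15), did not pass, and the median was -0.03. Means over that list, 6.53 to 6.76 in 67NR and 5.98 to 6.12 in 4T1.2, did not overlap. Of 13 T, B and NK cell markers 2 were lower (median -0.74). Of 13 epithelial markers 2 were higher (Krt18, 6.59 in 67NR and 10.4 in 4T1.2 as type means, and Krt7) and 11 did not pass (median 0.03). The part of any of these cell types in the members' differences was not tested.

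Between EO771 and EO771.LMB, no guidance gene passed the test in either direction. With limma and adjustment over all clusters, 0 of 60 members were higher and 0 lower, beside 0% and 0.0197% of all clusters. The lowest adjusted p among the members was 0.31, and at an unadjusted p under 0.05, 6 members were higher and 5 lower (10% and 8.33%, beside 3.91% and 4.39% of all clusters). By size, 55 of 60 members differed by less than 0.5 on the log2 scale, with standard errors of 0.09 to 0.54. Groups did not overlap in 14 members (23.3%, beside 14.7% of all clusters and 16% of all genes).

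The 3 members per direction with the smallest unadjusted p are given as values. Plxna4, the plexin that with neuropilins receives Sema3a, gave 9.83, 9.83 and 9.91 in the EO771 tumours and 10.22, 10.41 and 10.27 in those of EO771.LMB (0.44, SE 0.12, adjusted p = 0.31). Robo1 gave 4.75, 5.0 and 4.86 against 5.28, 5.21 and 5.70 (0.53, SE 0.18, adjusted p = 0.45). Sema3a gave 6.73, 7.36 and 6.22 against 10.19, 7.41 and 7.29 (1.52, SE 0.54, adjusted p = 0.46). EO771.LMB tumour 1 carried this difference, since without it the value was 0.58 (SE 0.23, adjusted p = 0.46), and the groups overlapped. The SD of Sema3a over the EO771.LMB tumours (1.64) was the largest of the 60 members, the next being that of Plxnc1 (0.43).

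On the lower side, Plxnc1, the receptor of Sema7a, gave 6.56, 6.38 and 6.5 in the EO771 tumours and 6.32, 5.74 and 5.49 in those of EO771.LMB (-0.63, SE 0.18, adjusted p = 0.31). Without EO771.LMB tumour 1 it passed the test (-0.86, adjusted p = 0.035). Slit2 gave 5.74, 5.88 and 5.84 against 5.51, 5.13 and 5.06 (-0.59, SE 0.19, adjusted p = 0.41), and Nrp1 gave 6.95, 7.14 and 6.90 against 6.44, 6.68 and 6.30 (-0.53, SE 0.17, adjusted p = 0.41). Both had groups that did not overlap, at differences smaller than those between the 4T1 tumours. In the same comparison 1 of 18 blood endothelial markers passed, lower (Cdh5, 10.7 in EO771 and 9.16 in EO771.LMB as type means), with a median of -0.35 over that list, and 1 of 7 lymphatic markers (Pdpn), also lower. None of 8 adipocyte markers passed, but their list means of 7.17 to 7.32 in EO771 and 6.11 to 6.72 in EO771.LMB did not overlap (median -0.92), and none of 13 T, B and NK cell markers passed (median -0.79). The part of these cells in the members' values was not tested.

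The difference between the pairs' changes was tested directly. It passed for 23 of 60 members, or 38.3%, beside 10.2% of all clusters and 12.3% of all genes. In all 23 the larger absolute change was that of the 4T1 pair, and 22 of them had also been called between 67NR and 4T1.2, the exception being Efna2 (0.28 and -0.24). The matching shares of all genes were not computed. Over all genes the median absolute difference was also larger in the 4T1 pair (0.19, beside 0.11 in the EO771 pair). These counts thus cannot be read as particular to guidance genes. The largest differences were those of Sema3a (-7.29, SE 0.77, adjusted p = 2.0e-05), Sema5a (-3.95, adjusted p = 3.3e-08), Epha1 (3.53, adjusted p = 1.6e-07), Efnb2 (-2.63, adjusted p = 1.3e-06) and Sema6a (2.62, adjusted p = 2.6e-05). The value of Sema3a depended on EO771.LMB tumour 1 and was -6.35 without it (adjusted p = 2.5e-08). By family they comprised 5 of 7 class 3 semaphorins (Sema3a, Sema3b, Sema3c, Sema3e and Sema3f), both neuropilins, 3 of 9 plexins, 2 of 3 Slits and only 1 of 9 EphA receptors.

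**Figure D3:**
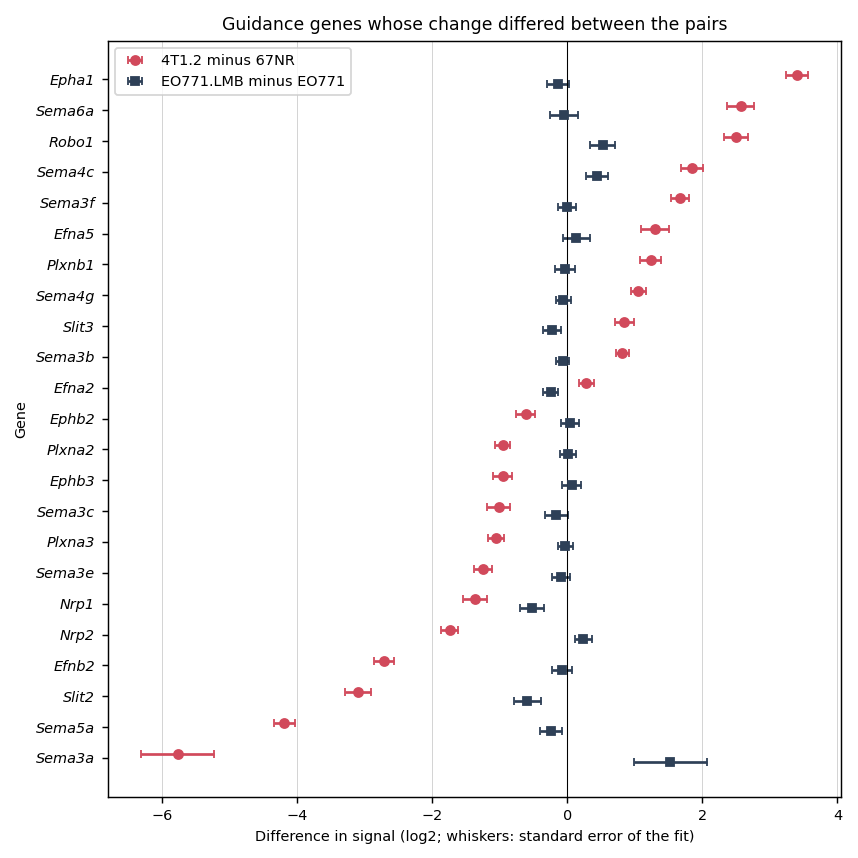
Log2 difference in signal, with the standard error of the fit, between 4T1.2 and 67NR (circles) and between EO771.LMB and EO771 (squares) for the 23 guidance genes whose change differed between the pairs, ordered by the former. The squares lie within 0.6 of 0 for every gene but Sema3a (1.52), and the circles run from -5.77 for Sema3a to 3.39 for Epha1.

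Most guidance genes differed between the EO771 pair and the 4T1 pair, a comparison of 6 tumours with 6. With the mean of EO771 and EO771.LMB set against the mean of 67NR and 4T1.2, 11 members were higher and 26 lower in the EO771 pair, or 18.3% and 43.3% of members. The shares over all clusters were 19% and 19.3%, and over all genes 23.6% and 19.5%. The share of members higher was thus near or below the background and the share lower above it. The median difference was -0.13, beside -0.02 over all genes, and the median absolute difference 0.56, beside 0.21. Groups did not overlap in 9 of the 11 and 13 of the 26, or 15% and 21.7% of members, beside 10.7% and 7.85% of all clusters and 13.6% and 8.97% of all genes. This comparison shares its 67NR, 4T1.2, EO771 and EO771.LMB tumours with those above.

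Plxna4 and Slit1 led the members higher in the EO771 pair. Plxna4 lay between 9.83 and 10.41 in the 6 tumours of the EO771 pair and between 5.80 and 6.28 in the 6 of the 4T1 pair (3.97, SE 0.09, 15.7-fold, adjusted p = 2.2e-13). The groups did not overlap, and the EMT6.5 tumours, at 5.94, 6.16 and 6.19, fell with the 4T1 pair. Slit1, best known from the nervous system, gave 6.91, 6.97 and 6.88 in the EO771 tumours and 6.67, 6.76 and 7.07 in those of EO771.LMB, against 4.53 to 5.16 in the 4T1 pair (1.98, SE 0.09, adjusted p = 2.6e-10). Sema6d, a membrane ligand of Plxna1, was between 9.91 and 10.33 against 8.22 to 8.73 (1.62, SE 0.09, adjusted p = 2.4e-09), and Plxna1 itself was higher by 0.90. Sema4b (1.56, SE 0.11, adjusted p = 3.6e-08) and Sema7a (1.42, SE 0.11, adjusted p = 9.6e-08), a lipid-anchored semaphorin, gave 8.07 to 8.43 and 8.96 to 9.51 in the EO771 pair. Efnb1 (0.95), Plxnd1 (0.88), Efna1 (0.77), Sema6b (0.65) and Efna2 (0.24) were also higher.

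The members lower in the EO771 pair were led by 5 ligands. Efna5 lay between 5.32 and 5.75 in the EO771 pair and between 9.25 and 11.16 in the 4T1 pair (-4.55, SE 0.14, 23.4-fold, adjusted p = 6.8e-12). Sema3e lay between 4.92 and 5.13, below the median cluster, against 8.43 to 9.93 (-4.20, SE 0.09, 18.4-fold, adjusted p = 2.7e-13). Efnb2 was between 5.98 and 6.22 in the EO771 pair (-3.25, SE 0.10, 9.5-fold, adjusted p = 8.4e-12), Slit2 between 5.06 and 5.88 (-2.98, SE 0.14, 7.9-fold, adjusted p = 3.4e-10) and Sema5a between 5.16 and 5.73 (-2.60, SE 0.11, 6.08-fold, adjusted p = 1.7e-10). All of these ligands were below the median cluster in each EO771 and EO771.LMB tumour. Nrp1 was 6.30 to 7.14 against 8.26 to 10.22 (-2.59, SE 0.12, adjusted p = 4.6e-10), whereas Nrp2 did not pass.

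By family, 5 of 7 class 3 semaphorins were lower by the mean of the EO771 pair and none higher (median -0.97), Sema3d and Sema3g having low signals throughout. Among these, only Sema3e and Sema3f had groups that did not overlap. Sema3a, Sema3b, Sema3c, Robo1, Epha1 and Ephb3 were among those lower by the mean of the pairs although their groups overlapped, since 67NR and 4T1.2 themselves differed. Sema3a was lowest in 4T1.2, below both EO771 types as type means. Against the mean of the 5 types, Sema3b was at 0.54 in 4T1.2 and -0.27 in 67NR, beside -0.16 in EO771 and -0.22 in EO771.LMB. Of 5 EphB receptors, which bind the ephrin-B ligands, 4 were lower (Ephb2 -1.21, Ephb6 -0.69, Ephb3 -0.60 and Ephb4 -0.59). The groups of Ephb3 and Ephb4 overlapped, and Ephb3 stood above the other types only in 67NR. The ephrin-B ligands went in different directions, with Efnb1 higher and Efnb2 lower, and so did the plexins, with 3 higher and 3 lower. Sema6b, with 2 clusters, was higher in both (0.65 and 0.68), whereas of the 2 clusters of Ephb1 the dimmer one was lower (-0.35, adjusted p = 0.0027) and the brighter one did not pass (0.04).

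**Figure D4:**
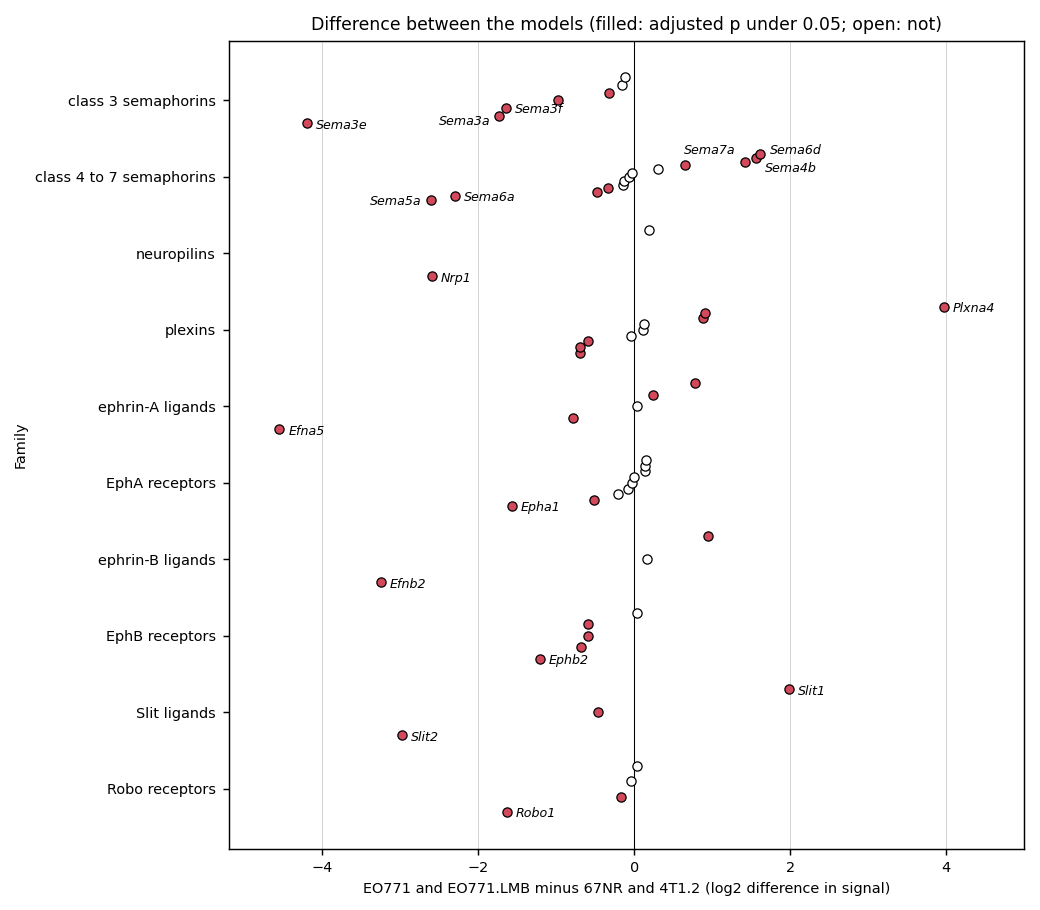
Log2 difference in signal between the EO771 pair and the 4T1 pair for each of the 60 guidance genes (horizontal axis), by family (rows); filled points passed the adjusted test and open points did not, and the height within a row only spreads the points. Efna5 (-4.55) and Plxna4 (3.97) lie at the ends, and class 3 semaphorins and EphB receptors have filled points on the lower side only. A point sets means of pairs against each other, and the groups of Sema3a, Sema3b, Sema3c, Ephb3 and Ephb4 overlapped.

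Some stromal markers differed between the models as well, and their counts stand beside 23.6% of all genes higher and 19.5% lower in the EO771 pair. Of 13 macrophage markers 12 were lower in the EO771 pair and none higher (median -1.41), of 12 fibroblast markers 9 were lower (median -0.95), and of 11 pericyte and smooth muscle markers 5 were lower (median -0.37). Blood endothelial markers were mixed, with 4 of 18 higher and 7 lower (median -0.09). Of 10 Schwann cell and nerve markers 1 was higher and 3 were lower, and Sox10 was below the median cluster in all types. Nrp1, Nrp2 and Efnb2 are known from vessels and Nrp1 also from macrophages, but the part of these cells in the members' differences was not tested.

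Each type was then set against the mean of the 5 types. In 67NR, 18 members were higher and 20 lower (30% and 33.3%, beside 11.5% and 13.3% of all clusters and 13.2% and 16.4% of all genes), with Sema5a (3.21), Sema3a (3.20), Sema3e (2.82), Slit2 (2.56) and Efnb2 (2.44) at the top and Plxna4 (-1.65), Slit1 (-0.94), Epha1 (-0.92), Sema4c (-0.90) and Sema7a (-0.73) at the bottom. In 4T1.2, 14 were higher and 16 lower (23.3% and 26.7%, beside 12.9% and 14.1% of all clusters and 13.3% and 17.5% of all genes), led by Epha1 (2.47), Sema6a (2.47), Efna5 (2.35), Robo1 (1.92) and Sema3e (1.57), and by Sema3a (-2.56), Plxna4 (-1.52), Sema7a (-1.06), Nrp2 (-0.99) and Sema5a (-0.98). Sema3e was thus above the mean in both types of the 4T1 model, and Sema7a below it in both.

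The EO771 types resembled each other in this respect. EO771 had 10 members higher and 23 lower (16.7% and 38.3%, beside 12.2% and 10.5% of all clusters and 15.4% and 11.9% of all genes). EO771.LMB had 11 higher and 21 lower (18.3% and 35%, beside 13.3% and 11.6% of all clusters and 16.8% and 12.8% of all genes). The shares of members higher were thus near those of all genes. Plxna4 (2.16 and 2.60), Slit1 (1.25 and 1.17), Sema6d (0.85 and 1.11) and Sema4b (0.86 and 0.90) were at the top in both, with Plxna1 (0.56) in EO771 and Efnb1 (0.63) in EO771.LMB. Efna5 (-2.91 and -2.78), Efnb2 (-2.12 and -2.20), Sema3e (-1.95 and -2.05) and Slit2 (-1.67 and -2.26) were at the bottom in both, with Sema3a (-2.17) in EO771 and Nrp1 (-2.10) in EO771.LMB. The values set side by side share the mean they are set against.

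EMT6.5, the fifth type, was labelled metastatic like 4T1.2, and for several ligands, among them Sema3a, Slit2 and Efnb2, its level was nearer to that of 67NR. For others, among them Efna5, Sema5a, Sema3f and Slit3, it was nearer to that of 4T1.2. Against the mean of the types, Efna5 was at 2.28 in EMT6.5, 2.35 in 4T1.2 and 1.05 in 67NR. Of the members 18 were higher and 8 lower than the mean of the types (30% and 13.3%, beside 9.93% and 9.93% of all clusters and 11.5% and 11.9% of all genes). Of 12 fibroblast markers 9 were higher and 1 lower in EMT6.5 (median 0.83), and of 11 pericyte and smooth muscle markers 8 were higher (median 0.47, list means of 7.35 to 7.58 against at most 7.06 in any other tumour), and their part in the members' differences was not tested. Sema3c, a class 3 ligand of both neuropilins, gave 9.18, 8.68 and 9.20 in EMT6.5 and at most 6.47 in any other tumour (2.97, SE 0.11, adjusted p = 1.7e-10). Sema3a gave 11.09, 11.17 and 11.09 (2.18, SE 0.34), Efnb2 10.38, 10.72 and 10.18 (2.14, SE 0.09), Nrp1 10.63, 10.70 and 10.93 (2.18, SE 0.11) and Efna5 10.25, 10.55 and 10.91 (2.28, SE 0.13). Ephb2, a receptor of Efnb2, was highest in EMT6.5, with 7.56, 7.65 and 7.67, as were Sema3c and Nrp1. By type means, Sema3a and Efnb2 were highest in 67NR and Efna5 in 4T1.2. On the lower side Plxna4 (-1.60), Slit1 (-0.88), Sema4c (-0.71), Sema6d (-0.68) and Sema4b (-0.42) led. Leaving out EMT6.5 tumours 1 and 3, which carried the muscle markers, left 15 members higher and 4 lower, beside 4.23% and 4.18% of all clusters in the same fit, with Sema4b (-0.42, adjusted p = 0.085) and Sema4c (-0.58, adjusted p = 0.073) no longer passing. These markers' part was not tested further, and the single tumour left was assumed to vary like the other types.

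Ordering the types by level showed where neighbours differed. For Sema3a the order was 67NR (12.15 ± 0.11, SD, n = 3), EMT6.5 (11.12 ± 0.05), EO771.LMB (8.29 ± 1.64), EO771 (6.77 ± 0.57) and 4T1.2 (6.38 ± 0.07), and only the step from EMT6.5 to EO771.LMB passed the test between neighbours (2.82, adjusted p = 0.0013). This rested on EO771.LMB tumour 1, which widened the error, since without it the step from 67NR to EMT6.5 passed as well (-1.03, SE 0.20, adjusted p = 0.0032, against 0.24 with it). For Slit2 the order was 67NR (10.05 ± 0.39), EMT6.5 (9.39 ± 0.31), 4T1.2 (6.96 ± 0.15), EO771 (5.82 ± 0.07) and EO771.LMB (5.23 ± 0.24), and every step but the last passed. For Efnb2 the step from 67NR (10.73 ± 0.08) to EMT6.5 (10.43 ± 0.28) did not pass (adjusted p = 0.20), whereas those on to 4T1.2 (8.02 ± 0.28) and to EO771 (6.17 ± 0.06) did. In all 3 the highest levels were those of 67NR and EMT6.5, which the labels class as non-metastatic and metastatic.

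For Nrp1 the order was EMT6.5 (10.75 ± 0.16), 67NR (10.01 ± 0.19), 4T1.2 (8.64 ± 0.38), EO771 (7.0 ± 0.12) and EO771.LMB (6.47 ± 0.19), with all steps but the last past the test. Nrp2 varied less, and no pair among EO771.LMB (9.73 ± 0.13), EMT6.5 (9.65 ± 0.20) and EO771 (9.49 ± 0.06) passed the test, although EO771.LMB and EO771 did not overlap. Epha1 was highest in 4T1.2 (8.62 ± 0.17), then in EMT6.5 (6.20 ± 0.18), and did not differ between neighbours among EO771 (5.41 ± 0.21), EO771.LMB (5.28 ± 0.34) and 67NR (5.22 ± 0.08). Robo1 followed the same beginning, with 8.01 ± 0.29 in 4T1.2 and 6.69 ± 0.26 in EMT6.5, above 5.52 ± 0.25 in 67NR. Slit3, the remaining Slit, was highest in EMT6.5 (7.26 ± 0.15) and 4T1.2 (7.18 ± 0.26), which did not differ between them.

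Several other members varied little. Of the 17 members that did not differ across the types, 16 were below the median cluster in every type. The exception was Epha2, an Eph receptor of epithelia, which lay between 7.59 and 8.35 in all tumours. Its adjusted p by the F test was 0.067, and it passed when only clusters above the median signal were tested. Others differed among the types by the F test, but over a limited range. Plxnb2, the receptor of Sema4c, lay between 8.64 and 9.35 (adjusted p = 0.031), Sema4d, the ligand of Plxnb1, between 6.5 and 7.45 (adjusted p = 0.0069), Sema4a between 6.17 and 7.2 (adjusted p = 0.0053) and Ephb4, the receptor of Efnb2, between 6.27 and 7.5 (adjusted p = 0.0015). Plxnb1 itself was highest in 4T1.2 (7.03 ± 0.33) and EMT6.5 (6.78 ± 0.17), which did not differ beyond their spread, and was lower than both in 67NR (5.79 ± 0.09), EO771 (5.73 ± 0.19) and EO771.LMB (5.69 ± 0.09). Ephb2, another receptor of Efnb2, fell from EMT6.5 (7.63 ± 0.06) through 67NR (6.88 ± 0.09) and 4T1.2 (6.26 ± 0.26), each step past the test, to EO771.LMB (5.38 ± 0.26) and EO771 (5.34 ± 0.02). Ephb3 was above the other types only in 67NR (6.16 ± 0.25), with neighbours among the other 4 types (5.05 to 5.20 as means) not past the test. Robo4, the Robo receptor of endothelium, ranged from 5.56 to 6.0, and Robo2 and Robo3 lay between 4.13 and 5.36. Sema6c passed between 67NR and 4T1.2 but not across the 5 types.

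Genes that act downstream of, or beside, these ligands and receptors were described from 4 lists, whose counts stand beside 9.78% of all genes higher and 11% lower in 4T1.2 and 23.6% higher and 19.5% lower in the EO771 pair. In plexin and neuropilin signalling, 6 of 49 genes rose and 7 fell from 67NR to 4T1.2 (median difference 0.02), and between the models 17 were higher and 12 lower in the EO771 pair (0.04). Dpysl3, a collapsin response mediator that relays semaphorin signals to the cytoskeleton, was lower in 4T1.2 (-2.04, SE 0.14) and also lower in the EO771 pair (-2.03, SE 0.10). Crmp1, of the same protein family, was higher in the EO771 pair (4.40, SE 0.11), as was L1cam, an adhesion molecule that pairs with Nrp1 (3.09, SE 0.09). Rnd3, a GTPase that acts on plexins, was lower in 4T1.2 (-0.91) and in the EO771 pair (-2.60), and the VEGF receptor Flt1 was higher in 4T1.2 (0.94).

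In Eph and ephrin signalling, 10 of 34 genes rose and 8 fell from 67NR to 4T1.2 (median 0.10), and between the models 7 were higher and 15 lower in the EO771 pair (-0.18). Ptpn13, a phosphatase, was lower in both comparisons (-3.0, SE 0.15 and -2.02, SE 0.10), whereas the exchange factor Vav3 was higher in 4T1.2 (1.30, SE 0.11) and lower in the EO771 pair (-2.14, SE 0.08). Ngef, an exchange factor bound to EphA4, was higher in the EO771 pair (2.76, SE 0.09). In Slit and Robo signalling, 3 of 23 genes rose and 4 fell (median 0.02), and 6 were higher and 5 lower in the EO771 pair (0.11). Flrt2 was lower in 4T1.2 (-3.46, SE 0.30), Sos2 was higher (1.23, SE 0.11), and the actin regulator Enah was lower in the EO771 pair (-3.28, SE 0.10). Of 18 netrins, RGMs and their receptors, 3 rose and 2 fell from 67NR to 4T1.2, among them Unc5b (0.99) and Ntn1 (-1.34), and 5 were higher and 3 lower in the EO771 pair, among them Unc5a (1.59). None of the 124 genes of the 4 lists passed between EO771.LMB and EO771, and list medians lay near 0 there (0.00 to 0.07).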

How the data were processed

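Whole tumours of 5 types (3 each) were measured on 1 array each. The deposited values are log2 signals for 35556 transcript clusters. GCRMA (background adjustment, quantile normalization, median polish) is given in the methods, but Partek 6.6 and RMA in the submitters' processing notes, so the algorithm is not settled. Background correction can compress low signals. The workbook and the series table held the same values (0 of 533340 differed); 30 per-sample columns of other sheets were not used. Depth does not apply to arrays, and their number limits the precision.

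Differences were computed on the deposited log2 values with limma 3.58.1 in R 4.3.3, in one linear model of tumour type fitted to the 15 tumours together. Within each comparison, Benjamini-Hochberg adjustment ran over all clusters, with a threshold of 0.05. Figures were drawn with Python and matplotlib. The steps were tested on simulated data. The lists held 269 genes, all measured, 9 of them under an older symbol. Promoters were matched by symbol to a RefSeq table. The accession of 57 of 60 members was found there with the same symbol.

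The members and lists were chosen with earlier results of these data known. Named genes are the 5 members per direction with the largest difference among those called. For the difference between the pairs' changes they are the 5 with the largest absolute value in either direction. For EO771.LMB and EO771, with none called, they are the 3 per direction with the smallest p. Of each partner list, up to 3 genes per direction are named. Alternatives were the series table, array centring, quantile normalization, a filter on low signals, the types compared alone, a robust trended prior, one-way analysis of variance, the mean of a gene's clusters, each tumour left out, the mouse number as a block, an unadjusted threshold and clusters with a symbol. Leaving out EMT6.5 tumours 1 and 3 was added after seeing the data.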

Additional observations from a re-analysis of the deposited data

Results flagged for a closer look

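The changes within the 2 pairs differed by limma's test of the difference itself for 23 guidance genes. Each value below is the change from 67NR to 4T1.2 minus the change from EO771 to EO771.LMB on the log2 scale, followed by these 2 changes. Among class 3 semaphorins and neuropilins the values were Sema3a (-7.29, from -5.77 and 1.52), Nrp2 (-1.98, from -1.74 and 0.23), Sema3f (1.68, from 1.68 and -0.01), Sema3e (-1.15, from -1.25 and -0.10), Sema3b (0.88, from 0.81 and -0.07), Sema3c (-0.85, from -1.02 and -0.16), Nrp1 (-0.84, from -1.37 and -0.53). Among other semaphorins and plexins they were Sema5a (-3.95, from -4.19 and -0.24), Sema6a (2.62, from 2.57 and -0.05), Sema4c (1.41, from 1.85 and 0.44), Plxnb1 (1.27, from 1.23 and -0.03), Sema4g (1.11, from 1.05 and -0.06), Plxna3 (-1.02, from -1.05 and -0.03), Plxna2 (-0.97, from -0.96 and 0.01). Among ephrins and Eph receptors they were Epha1 (3.53, from 3.39 and -0.13), Efnb2 (-2.63, from -2.71 and -0.08), Efna5 (1.17, from 1.30 and 0.13), Ephb3 (-1.02, from -0.96 and 0.06), Ephb2 (-0.66, from -0.62 and 0.04), Efna2 (0.53, from 0.28 and -0.24). Among Slits and Robo receptors they were Slit2 (-2.51, from -3.09 and -0.59), Robo1 (1.97, from 2.50 and 0.53), Slit3 (1.08, from 0.85 and -0.23). In all 23 the 4T1 pair changed more in absolute size, and none of the changes in the EO771 pair passed the test. Matching shares of all genes were not computed for these counts. Of all genes, 0% were called higher and 0.0273% lower in EO771.LMB than in EO771, so the counts are not read as particular to guidance genes. With groups of 3 tumours, single tumours were not tested for standing apart.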

How the results depend on the processing

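The 18 counts of members were recomputed under 27 settings, though fitting only the types compared did not give all of them. Of the recomputed counts, 462 stayed within 1.5 times the main count while 13 did not. The series table held the same values as the workbook, so its counts could not differ. Testing only clusters above the median signal left 27 of the 60 members to test. Counts then fell to 4 higher in 4T1.2 than in 67NR, 14 for the difference between the pairs' changes and 13 lower in the EO771 pair. Across the types, all 27 members left differed, among them Epha2, which had not passed over all clusters. Against the mean of the types, counts fell to 11 higher and 11 lower in 67NR, 6 higher in 4T1.2, 12 lower in EO771 and 12 lower in EO771.LMB. The filter's own construction, fewer genes tested, limits these counts. Shares of all clusters called under the filter were not computed, so fewer members tested and weaker results cannot be told apart. At an unadjusted p under 0.05, 6 members were higher and 5 lower in EO771.LMB than in EO771 (3.91% and 4.39% of all clusters), where none was called after adjustment. Without EMT6.5 tumours 1 and 3, 4 members were lower in EMT6.5 in place of 8, beside 4.18% of all clusters in place of 9.93%. Leaving out each tumour in turn gave 0 to 1 members lower in EO771.LMB than in EO771, the 1 being Plxnc1 without EO771.LMB tumour 1 (-0.86, adjusted p = 0.035), and 10 to 13 higher and 12 to 15 lower in 4T1.2 than in 67NR. With the mouse number as a replicate block, 12 members were higher and 14 lower in 4T1.2 than in 67NR, and no call of a named member was lost. Of the 81 named values none reversed, and Sema4b in EMT6.5 did not pass without EMT6.5 tumour 1 (-0.29, adjusted p = 0.075). Values given for members outside the naming rule are not covered by this. The mouse numbers were not taken to pair the tumours. Deviations of same-numbered tumours correlated by -0.01 to 0.15 between 67NR and 4T1.2 and by -0.07 to 0.08 between EO771 and EO771.LMB. The same-numbered tumour was the best match for 2 of 3 tumours in the 4T1 pair and for 1 of 3 in the EO771 pair. So few tumours cannot settle whether the numbers pair them.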
